A study of Mus musculus with 21 samples.

Results

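The genes described here are 10 genes of the Hippo/YAP pathway and its transcriptional output in mouse embryonic stem cells (ESCs): *Cyr61* (also *Ccn1*), *Ctgf* (also *Ccn2*), *Amotl2*, *Ankrd1*, *Ajuba*, *Lats2*, *Amotl1*, *Yap1*, *Wwtr1* and *Tead1*. They were picked by name from 51467 genes in the deposited counts, with measured values of these samples in view: *Amotl2* stood out for a loss of nascent RNA that its total RNA did not follow. All 10 were found, and 9 of them passed the expression filter that left 14518 genes for testing. The exception was *Ankrd1*. Because the members were chosen from the comparison of *Ddx6* KO with wild-type cells, their values in that comparison are given as a description without p-values.

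RNA came from V6.5 mouse ESCs, an established line, cultured in LIF and 2i medium with serum, and the comparison asks how losing DDX6, a DEAD-box RNA helicase that localizes to P-bodies, changes transcription and mRNA stability. Wild-type cells were represented by 3 cultures. *Ddx6* KO cells were represented by 4 cultures, 2 from each of 2 clones that were derived from V6.5 with Cas9 and 1 guide against the coding sequence, 1 clone carrying a small insertion and the other a large deletion. Every culture, wild type included, received 500 µM 4-thiouridine (4sU), a uridine analog that enters new transcripts, for 30 minutes. The labelled RNA was then enriched for 4sU-Seq (nascent RNA), and a portion of the same RNA was depleted of rRNA and sequenced as total RNA. The 4 KO cultures therefore stand for 2 independent mutations, and nothing in the labels says how far apart the cultures were grown, so errors measure the spread between these cultures.

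The Hippo pathway is a kinase cascade in which MST kinases (*Stk3*, *Stk4*) activate LATS kinases (*Lats1*, *Lats2*), which phosphorylate the coactivators YAP (*Yap1*) and TAZ (*Wwtr1*) and keep them out of the nucleus. Unphosphorylated YAP and TAZ bind TEAD transcription factors and switch on genes such as *Cyr61*, *Ctgf*, *Ankrd1* and *Amotl2*. Several of these targets feed back on the pathway: angiomotins (*Amot*, *Amotl1*, *Amotl2*) bind YAP and hold it at junctions and actin, LATS2 is itself an inhibitor of YAP, and AJUBA restrains LATS kinases. In early mouse embryos the pathway separates the outer cells, where YAP is nuclear, from the inner cells that give rise to ESCs.

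Promoters are shown first because 4sU-Seq reads the output of these start sites and TEAD factors recognise a short core, searched here as GGAATG on either strand (CATTCC on the other). The RefSeq promoter table for GRCm38.p6, which covers 250 bases before and 50 after each start, held 10 promoters for 8 of the members. *Ctgf* and *Tead1* were not matched in it. The core was present in 8 of those 10 promoters and in 7 of the 8 genes, all but *Amotl1*, where 14.7% of 32851 promoters and 16.6% of all genes in the table held it. The only *Amotl1* promoter listed there, chr9:14614951-14615250, lies inside the gene. The 5′ end of *Amotl1*, at 14645056 on the minus strand, was therefore not searched. The *Lats2* promoters listed also lie inside their gene. At least 2 cores occurred in 1.36% of all promoters, and in those of *Ajuba* and *Ankrd1* among the members. A match is a string of letters and not a measured binding site. Below are the 250 bases before the start of the target with the highest nascent level per length (*Cyr61*), of *Amotl2*, of *Ajuba* with its 2 cores, and of *Yap1*, whose nascent RNA differed in the opposite direction, with the core in capitals.
Cyr61, chr3:145649986-145650235, minus strand: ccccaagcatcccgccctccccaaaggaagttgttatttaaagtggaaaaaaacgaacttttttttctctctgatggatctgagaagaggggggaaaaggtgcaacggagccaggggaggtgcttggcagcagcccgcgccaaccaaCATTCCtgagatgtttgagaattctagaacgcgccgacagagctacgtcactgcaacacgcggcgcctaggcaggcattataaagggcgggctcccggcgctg
Amotl2, chr9:102717554-102717803, plus strand: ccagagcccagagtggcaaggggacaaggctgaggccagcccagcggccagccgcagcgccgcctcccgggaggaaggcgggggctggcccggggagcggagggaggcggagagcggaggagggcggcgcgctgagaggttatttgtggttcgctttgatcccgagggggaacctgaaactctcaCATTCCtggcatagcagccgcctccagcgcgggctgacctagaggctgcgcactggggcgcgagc
Ajuba, chr14:54577662-54577911, minus strand: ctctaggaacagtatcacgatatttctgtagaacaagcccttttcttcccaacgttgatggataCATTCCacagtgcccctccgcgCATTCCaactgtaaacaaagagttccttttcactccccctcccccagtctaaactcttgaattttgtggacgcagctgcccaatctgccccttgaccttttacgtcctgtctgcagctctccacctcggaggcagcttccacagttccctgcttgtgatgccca
Yap1, chr9:8004597-8004846, minus strand: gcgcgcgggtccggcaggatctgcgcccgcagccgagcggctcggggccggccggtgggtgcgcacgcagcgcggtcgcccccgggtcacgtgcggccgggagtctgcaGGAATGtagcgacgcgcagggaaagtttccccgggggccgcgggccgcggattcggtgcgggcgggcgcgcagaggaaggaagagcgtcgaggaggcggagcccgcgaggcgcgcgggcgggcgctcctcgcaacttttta

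Counted from the start, the first base of the core lay at −103 in *Cyr61*, −65 in *Amotl2*, −186 and −164 in *Ajuba*, and −141 in *Yap1*. The *Lats2* promoter held it on the transcribed side, at 5.

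Libraries held 2441639 to 3570192 counts for 4sU and 5724179 to 7369651 for total RNA, so that 3 counts, the floor used here, correspond to at most 1.23 and 0.524 counts per 1e6 (CPM). Levels below are normalised CPM, counts scaled by the library total and by an edgeR composition factor (TMM) that ran from 0.925 to 0.942 in wild-type and from 1.03 to 1.07 in *Ddx6* KO libraries. *Ddx6* itself, the targeted gene, had 371 ± 31.6 normalised CPM of total RNA in wild-type cells (SD, n = 3) and 42.6 ± 23.7 in KO cells (SD, n = 4), and its nascent RNA was 254 ± 15.6 against 192 ± 43.2. The 6 ESC markers were all expressed, summing to 4810 to 5255 normalised CPM in wild-type and 4940 to 5294 in KO 4sU libraries, and to 3075 to 3190 and 3588 to 3810 in total RNA. The similar 4sU sums hold opposite differences. Mean nascent *Sox2* was 1549 in wild-type and 989.5 in KO cells, whereas *Nanog* was 981 and 1394, and the means of the other markers were also higher in KO cells. The 7 fibroblast (feeder) markers summed to 3.35 to 5.76 in wild-type and 10.9 to 12.7 in KO total RNA, with *Dcn* and *Postn* at 0, and to 3.30 to 4.87 and 6.10 to 10.3 in 4sU, with *Col1a2*, *Lum* and *Postn* at 0. The highest of them in total RNA were *Thy1*, at means of 2.5 in wild-type and 7.1 in KO cells, and *Col1a1*, at 2.3 and 4.7. Sums of markers cannot tell apart fewer cells of a type and less RNA per cell.

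The canonical targets were lower in *Ddx6* KO nascent RNA, and less so in total RNA. *Amotl2*, an angiomotin that restrains YAP and is itself one of its targets (chr9:102716672-102733418, plus strand), had 1082, 1044 and 1142 normalised CPM of nascent RNA in the wild-type cultures. It had 337 and 428 in the clone 1 cultures and 328 and 312 in the clone 2 cultures. All 4 KO cultures lay far under the 3 wild-type cultures, with the mean nascent level at 0.322 of wild type (log2 fold change −1.64 ± 0.10 SE). Total *Amotl2* RNA read 284, 312 and 297 in wild-type cells against 243 and 239 in clone 1 and 201 and 194 in clone 2. Those groups did not overlap either, but the total level was still 0.735 of wild type (−0.44 ± 0.10).

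*Cyr61* encodes a secreted matricellular protein and is a standard readout of YAP activity (chr3:145646976-145649981, minus strand). Its nascent RNA read 591, 596 and 577 normalised CPM in the wild-type cultures, 181 and 240 in clone 1, and 162 and 111 in clone 2. Its total RNA read 62.5, 65.5 and 65.2 in the wild-type cultures, 46.7 and 54.3 in clone 1, and 40.7 and 32.9 in clone 2. Both sets of KO values were below every wild-type value, by −1.77 ± 0.20 (log2, SE) in nascent and −0.56 ± 0.24 in total RNA.

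*Ctgf*, which encodes a related secreted protein (chr10:24595442-24598683, plus strand), was lowest relative to wild type among the members. Nascent *Ctgf* read 706, 712 and 732 normalised CPM in wild-type cells against 145 and 196 in clone 1 and 135 and 109 in clone 2. Total *Ctgf* read 43.9, 52.8 and 60.3 against 21.1 and 24.7, and 15.7 and 12.5. The KO level was 0.203 of wild type in nascent RNA (log2 −2.30 ± 0.18) and 0.353 in total RNA (−1.50 ± 0.25), and neither comparison overlapped.

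*Ankrd1*, which encodes a cardiac ankyrin repeat protein and is a common YAP target in other cells (chr19:36111961-36120099, minus strand), was scarcely counted. Its nascent counts were 0, 3 and 2 in the wild-type cultures and 0, 1, 1 and 1 in the KO cultures. Its total counts were 0, 0 and 1, and 1, 5, 3 and 2. These numbers lie near the floor, and no fold change is given.

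**Figure D1:**
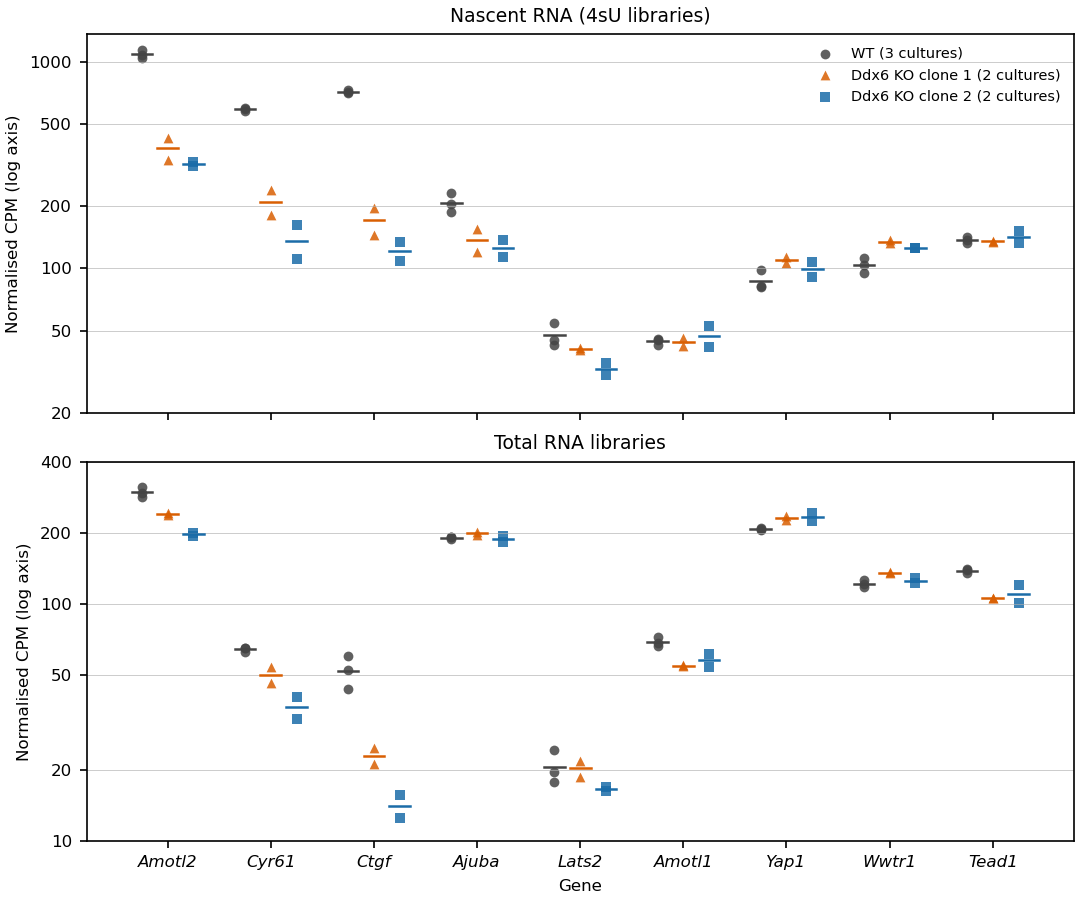
Normalised CPM (log axis) of the 9 tested members in each culture, nascent (4sU) and total RNA in separate panels, with wild type as circles, clone 1 as triangles, clone 2 as squares and bars at the group means. In nascent RNA *Amotl2*, *Cyr61* and *Ctgf* lie between 0.203 and 0.322 of their wild-type level in KO cells, while in total RNA the gap between groups is narrower for each of them.

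Members that act inside the cascade differed less. *Ajuba*, whose LIM protein inhibits LATS kinases (chr14:54567472-54577558, minus strand), had nascent levels of 188, 205 and 232 normalised CPM in wild-type cells against 120.0 and 156 in clone 1 and 138 and 114 in clone 2. Total *Ajuba* RNA read 192, 192 and 189 against 197, 202, 195 and 183. Its nascent RNA was thus lower in every KO culture (log2 −0.67 ± 0.08), whereas its total RNA overlapped between groups (0.03 ± 0.07).

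*Lats2*, the kinase that phosphorylates YAP and TAZ (chr14:57689662-57758388, minus strand), read 45.2, 42.5 and 54.7 normalised CPM in wild-type nascent RNA and 40.1, 41.1, 34.8 and 30.6 in KO nascent RNA. The groups were separate by a narrow margin (log2 −0.38 ± 0.13). Total *Lats2*, at 24.2, 17.8 and 19.5 against 18.7, 21.8, 16.9 and 16.2, overlapped (−0.14 ± 0.13).

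*Amotl1*, a second angiomotin (chr9:14541966-14645056, minus strand), showed the reverse arrangement. Nascent *Amotl1* read 42.5, 45.1 and 45.6 normalised CPM against 42.1, 46.2, 41.7 and 52.5, and these overlapped (log2 0.04 ± 0.11). Total *Amotl1* read 66.8, 72.6 and 68.6 against 54.7, 55.2, 54.3 and 61.9, lower in all 4 KO cultures (−0.30 ± 0.08). A same-strand transcript, *4930584E12Rik*, overlaps this gene, so its reads could be shared or lost.

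The effectors were not lower in nascent RNA. *Yap1* (chr9:7931999-8004596, minus strand) read 82.4, 81.3 and 98.1 normalised CPM in wild-type nascent RNA and 113, 106, 107 and 91.1 in KO nascent RNA, with 1 KO culture inside the wild-type range (log2 0.25 ± 0.08). Total *Yap1* read 207, 206 and 209 against 226, 235, 225 and 243, above wild type in every KO culture (0.16 ± 0.06). *Wwtr1*, the gene for TAZ (chr3:57455649-57575910, minus strand), read 94.8, 113 and 104 against 137, 133, 125 and 125 in nascent RNA, and here the KO cultures were all higher (0.32 ± 0.08). Its total RNA, at 122, 127 and 118 against 137, 135, 123 and 129, overlapped (0.10 ± 0.06).

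*Tead1*, the DNA-binding partner of YAP and TAZ (chr7:112679318-112906807, plus strand), resembled *Amotl1*. Its nascent levels were 137, 143 and 133 normalised CPM against 135, 135, 133 and 151, which overlapped (log2 0.01 ± 0.07). Its total levels were 140.3, 140.1 and 135 against 106, 106, 102 and 120.1, lower in each KO culture (−0.35 ± 0.06). The gene shares its strand with the overlapping transcript *Gm44462*.

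Over the 9 members, 5 were called lower and 2 higher in nascent RNA at an adjusted p below 0.05, where 21.0% and 20.6% of all tested genes were lower and higher. In total RNA 4 were lower and 1 higher, against 31.0% and 19.5% of all genes. For total over 4sU, 3 were called higher and 1 lower, against 3.79% and 8.58%. Since this comparison picked the genes, the counts describe the choice. The KO cultures did not overlap the wild-type cultures for 6 of the 9 members in 4sU, 6 in total RNA and 7 in the ratio, where 41.7%, 52.4% and 22.9% of all genes were separated in that way. The members' median log2 fold change was −0.38 in nascent RNA, −0.30 in total RNA and 0.24 in the ratio, beside 0.00, −0.10 and −0.09 for all tested genes.

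Per kilobase of exon, the 3 targets had the highest nascent levels in wild-type cells. *Cyr61* stood at 291 ± 4.79 normalised CPM per kb, *Ctgf* at 258 ± 4.82 and *Amotl2* at 244 ± 11 (SD, n = 3), the latter pair overlapping in their cultures. *Ajuba* followed at 59.5 ± 6.41, then *Wwtr1* at 21.7 ± 1.89 and *Yap1* at 20.9 ± 2.25, which also overlapped, *Tead1* at 13.7 ± 0.483, *Lats2* at 7.33 ± 0.986 and *Amotl1* at 4.86 ± 0.180. In KO nascent RNA *Cyr61* (85.9 ± 26.3, SD, n = 4) and *Amotl2* (78.7 ± 11.7) overlapped at the top, *Ctgf* was at 52.7 ± 13.2, overlapping *Cyr61*, *Amotl2* and *Ajuba*, and the means of the others kept the same order, from *Ajuba* at 37.7 ± 5.43 down to *Amotl1* at 4.99 ± 0.549, which overlapped *Lats2*, as *Yap1* overlapped *Wwtr1*.

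Total RNA ranked the same genes differently. *Amotl2* led in wild-type cells at 66.7 ± 3.22 normalised CPM per kb, ahead of *Ajuba* (54.6 ± 0.434), *Yap1* (49.7 ± 0.393), *Cyr61* (31.9 ± 0.816), *Wwtr1* (25.5 ± 0.936), *Ctgf* (18.9 ± 2.96), *Tead1* (13.8 ± 0.287), *Amotl1* (7.58 ± 0.324) and *Lats2* (3.17 ± 0.512), and none of these neighbours overlapped. In KO cells *Yap1* (55.7 ± 2.02) and *Ajuba* (55.5 ± 2.31) overlapped at the top with *Amotl2* (49.1 ± 5.67), and *Ctgf*, at 6.67 ± 1.96, overlapped *Amotl1* at 6.18 ± 0.395.

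Total over 4sU compares what has accumulated with what was made in the labelling window, so it orders genes by stability without giving half-lives. In wild-type cells the log2 ratio (normalised CPM plus 0.5 in each assay) was −3.77 ± 0.20 for *Ctgf*, −3.18 ± 0.05 for *Cyr61* and −1.87 ± 0.11 for *Amotl2* (SD, n = 3), at the 1.32, 3.84 and 15.6 percentiles of all tested genes. These 3 targets were thus among the less stable transcripts, in this order and with no overlap between neighbours. *Lats2* was at −1.19 ± 0.29 (percentile 23.7) and *Ajuba* at −0.12 ± 0.16 (44.6). *Tead1*, at 0.01 ± 0.03 (48.3), overlapped *Ajuba*. *Wwtr1* (0.24 ± 0.11), *Amotl1* (0.64 ± 0.05) and *Yap1* (1.25 ± 0.14) lay at percentiles 54.7, 67.7 and 85.0 and did not overlap each other. All points come from the same libraries, but uridine content, which affects the 4sU pull-down, differs between genes and was not adjusted for, so the order of genes can also reflect it.

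In the KO cultures the ratio of each of the 3 targets and of *Ajuba* was higher. *Amotl2* had −1.93, −1.74 and −1.94 in wild type and −0.47, −0.84, −0.71 and −0.68, which is percentile 31.1 of KO ratios. *Cyr61* had −3.23, −3.18 and −3.14 against −1.94, −2.13, −1.98 and −1.75 (percentile 14.1). The *Ctgf* ratio was −3.99, −3.74 and −3.59 in wild type and −2.75, −2.96, −3.07 and −3.07 in KO (percentile 4.86), so the 3 targets kept their order among themselves. *Ajuba* read 0.03, −0.09 and −0.29 against 0.71, 0.37, 0.50 and 0.68. In each of these 4 genes all KO ratios were above all wild-type ratios.

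The other members did not share that direction. *Tead1* read 0.03, −0.02 and 0.03 against −0.34, −0.35, −0.39 and −0.33, *Amotl1* 0.65, 0.68 and 0.58 against 0.37, 0.25, 0.37 and 0.23, and *Wwtr1* 0.36, 0.17 and 0.18 against −0.00, 0.02, −0.02 and 0.04. KO ratios were below wild type in all cultures for these 3 genes. *Lats2*, at −0.89, −1.23 and −1.46 against −1.08, −0.90, −1.02 and −0.90, and *Yap1*, at 1.33, 1.33 and 1.09 against 0.99, 1.14, 1.07 and 1.41, overlapped.

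**Figure D2:**
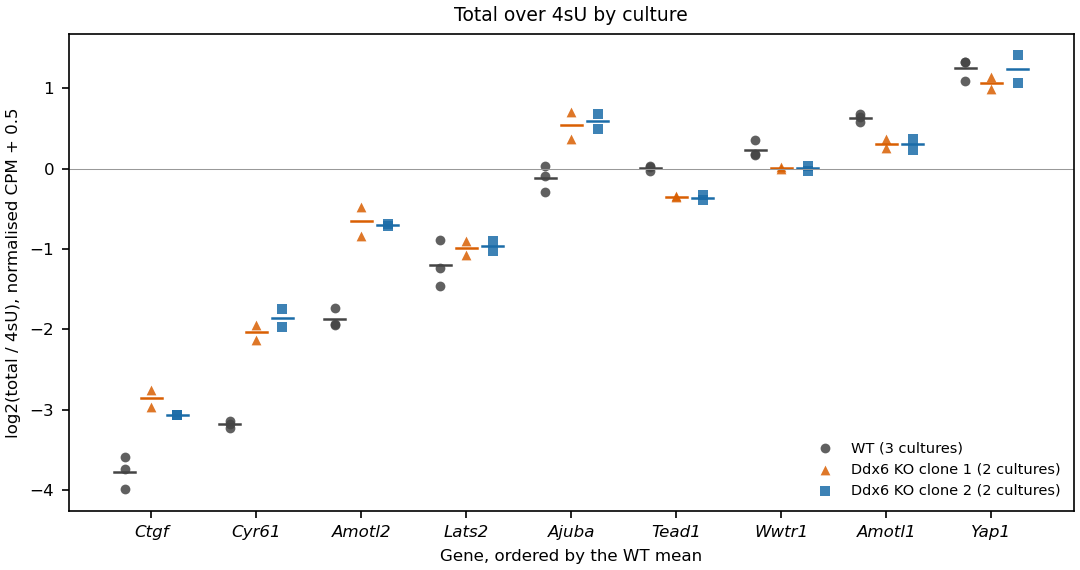
Log2 of total over 4sU (each normalised CPM plus 0.5) per culture for the 9 tested members, ordered by their wild-type mean, with wild type as circles, clone 1 as triangles and clone 2 as squares. *Ctgf*, *Cyr61*, *Amotl2* and *Ajuba* sit higher in all 4 KO cultures, *Tead1*, *Wwtr1* and *Amotl1* sit lower, and *Lats2* and *Yap1* overlap.

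The fitted difference in ratio, called stability in the study, was 1.19 ± 0.14 (log2, SE) for *Amotl2*, 1.21 ± 0.31 for *Cyr61*, 0.80 ± 0.32 for *Ctgf* and 0.70 ± 0.10 for *Ajuba*, folds of 2.29, 2.32, 1.74 and 1.62. For the members without a loss of nascent RNA it was −0.37 ± 0.10 (*Tead1*), −0.34 ± 0.14 (*Amotl1*), −0.22 ± 0.10 (*Wwtr1*) and −0.09 ± 0.10 (*Yap1*), and *Lats2* gave 0.24 ± 0.18. Stability equals the total minus the nascent difference, so an error in the nascent term enters it with the opposite sign. Nascent and stability differences had opposite signs in 9 of 9 members and in 62.5% of all tested genes. Under 17 alternatives the members' count was 7 to 9. In the main fit the nascent differences of *Tead1* and *Amotl1* lay within their SE. Under the alternatives they reached 0.22 and 0.25.

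The share of the nascent difference that did not appear in total RNA measures how far the ratio offset it. *Ajuba* had a share of 104% ± 10.1 (SE), so its total RNA was at the wild-type level, with 93.0% to 120.1% in single KO cultures. *Amotl2* had 72.9% ± 6.37 (65.8% to 82.7% by culture) and *Cyr61* 68.5% ± 14.1 (59.9% to 81.0%). Those 2 shares differed by less than their errors. *Ctgf* had 34.7% ± 12.2, and its cultures, at 25.9% to 44.4%, all lay below those of *Amotl2*, *Cyr61* and *Ajuba*. As a share of the nascent loss, the offset seen in *Amotl2* was therefore similar in *Cyr61*, larger in *Ajuba* and smaller in *Ctgf*. The log2 ratio difference itself was smaller in *Ajuba* (0.70), beside a nascent loss of −0.67, than in *Amotl2* (1.19). For *Lats2* (62.0% ± 36.1), *Wwtr1* (68.5% ± 21.2, from a nascent gain) and *Yap1* (35.8% ± 31.8, also from a gain) the errors were wide, and *Amotl1* and *Tead1* had nascent differences within their SE, for which no share is given.

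**Figure D3:**
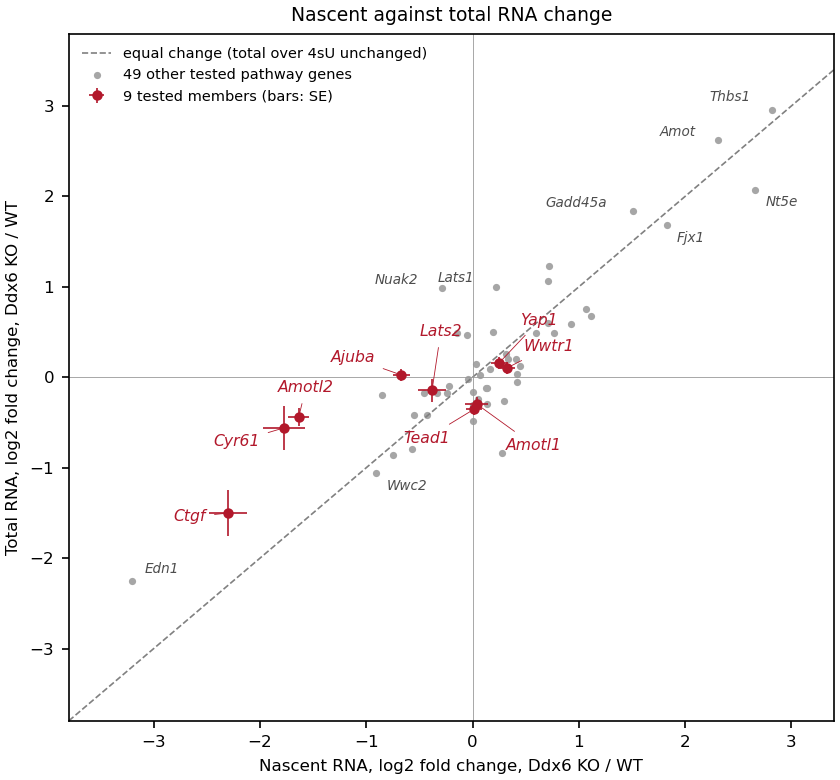
Log2 fold change in *Ddx6* KO against wild type of nascent RNA (horizontal) and total RNA (vertical), with SE bars for the 9 members and 49 of the 50 other pathway genes as small points, and a dashed line where both change equally. *Amotl2*, *Cyr61*, *Ctgf* and *Ajuba* lie left of 0 and above the dashed line, *Ctgf* nearest to it relative to its nascent loss, while *Tead1* and *Amotl1* lie near 0 in nascent RNA and below the line.

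The 2 KO clones offer a comparison that did not choose the members. None of the 9 was called between clone 2 and clone 1 by edgeR's quasi-likelihood test in nascent RNA, total RNA or the ratio, where 0.172%, 0.296% and 0.00689% of all genes were. At an unadjusted p under 0.05 the counts were 3, 3 and 0. The shares of all genes at that limit, and under the alternatives below, were not computed, so nothing is read from those counts. The genes counted were *Cyr61*, *Ctgf* and *Amotl2* in both assays, each lower in clone 2. The nascent differences were −0.63 ± 0.15 (log2, SE, adjusted p = 0.197), −0.49 ± 0.14 (adjusted p = 0.292) and −0.26 ± 0.08 (adjusted p = 0.292). Those in total RNA were −0.45 ± 0.18, −0.70 ± 0.21 and −0.29 ± 0.08, with adjusted p-values of 0.637, 0.332 and 0.104. In the ratio the clones differed by 0.17 ± 0.24, −0.21 ± 0.25 and −0.03 ± 0.11, within their errors. DESeq2 called 1 member (*Cyr61*) in nascent and 1 (*Ctgf*) in total RNA, and limma-voom called 2 (*Cyr61*, *Ctgf*) and 1 (*Ctgf*). Without clone 1 culture 1, edgeR called all 3 targets in nascent RNA, and without clone 2 culture 1 it called *Cyr61* in both assays. Total *Ddx6* RNA read 57.5 and 68.0 normalised CPM in clone 1 and 23.2 and 21.6 in clone 2, and its part in these differences was not tested.

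Sequence in the 3′ UTR of the principal Gencode M21 transcript was examined next, because AU-rich elements and miRNA sites are known to shorten mRNA lifetimes. *Cyr61* had 2 copies of UAUUUAU in 690 bases, where 27.9% of 11867 protein-coding genes had any and 9.39% had at least 2. *Ctgf*, with 1067 bases, and *Amotl2*, with 1712, had none, nor did *Ajuba* (1459) and *Yap1* (2498). *Lats2* had 1 in 1626 bases, *Amotl1* 1 in 5826, *Wwtr1* 1 in 3277 and *Tead1* 2 in 8147. The 4 genes whose ratio was higher in every KO culture thus included 1 with this motif and 3 without it. The median 3′ UTR of these genes was 984 bases.

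GCACUU, the match to the seed of the ESC-enriched miR-290 and miR-302 families, occurred in 5 of the 9 members (*Ajuba*, *Lats2*, *Amotl1*, *Wwtr1* and *Tead1*) and in 30.6% of the same 11867 genes. *Cyr61*, *Ctgf* and *Amotl2* had none. Among the members only *Lats2* had AGCACUUA, the match to the whole seed followed by A, which 3.19% of those genes had. Members of both miRNA families share the seed AAGUGCU (bases 2 to 8, in capitals, RefSeq), and 1 of each is printed beside the *Lats2* sites, where capitals mark GCACTT.
mmu-miR-294-3p: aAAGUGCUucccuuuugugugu
mmu-miR-302b-3p: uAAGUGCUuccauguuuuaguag
Lats2 site 1: agtatggaaagaGCACTTattt
Lats2 site 2: ttgtatctgataGCACTTgtcc

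Beyond the members, 57 other pathway genes were listed by role, and 50 were tested. Of these, 20 rose and 9 fell in nascent RNA, 21 rose and 14 fell in total RNA, and 3 rose and 12 fell in the ratio. That is 40% and 18%, 42% and 28%, and 6% and 24%, to be read beside the shares of all genes given above. The counts by role below, over 6 to 18 genes each, are also to be read beside those shares. With the culture as a block, since both assays of a culture come from 1 RNA sample, the ratio gave 5 higher and 12 lower, while leaving out 1 culture lowered the count of 12 to 5 (without WT 1, WT 3 or clone 2 culture 1) or 6 (without WT 2). The list's medians were 0.15, 0.06 and −0.11 (log2), against 0.00, −0.10 and −0.09 for all genes. Scaling by library size alone, which moved the median of all genes to 0.21 in nascent RNA, gave 33 higher and 6 lower in nascent and 26 and 8 in total RNA, and TMM within each assay gave 5 and 3 in the ratio. The 7 untested genes (*Fat4*, *Dchs1*, *Vgll3*, *Foxf2*, *Ccdc80*, *Rbms3* and *Itgb2*) had at most 19 counts in any library.

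**Figure D4:**
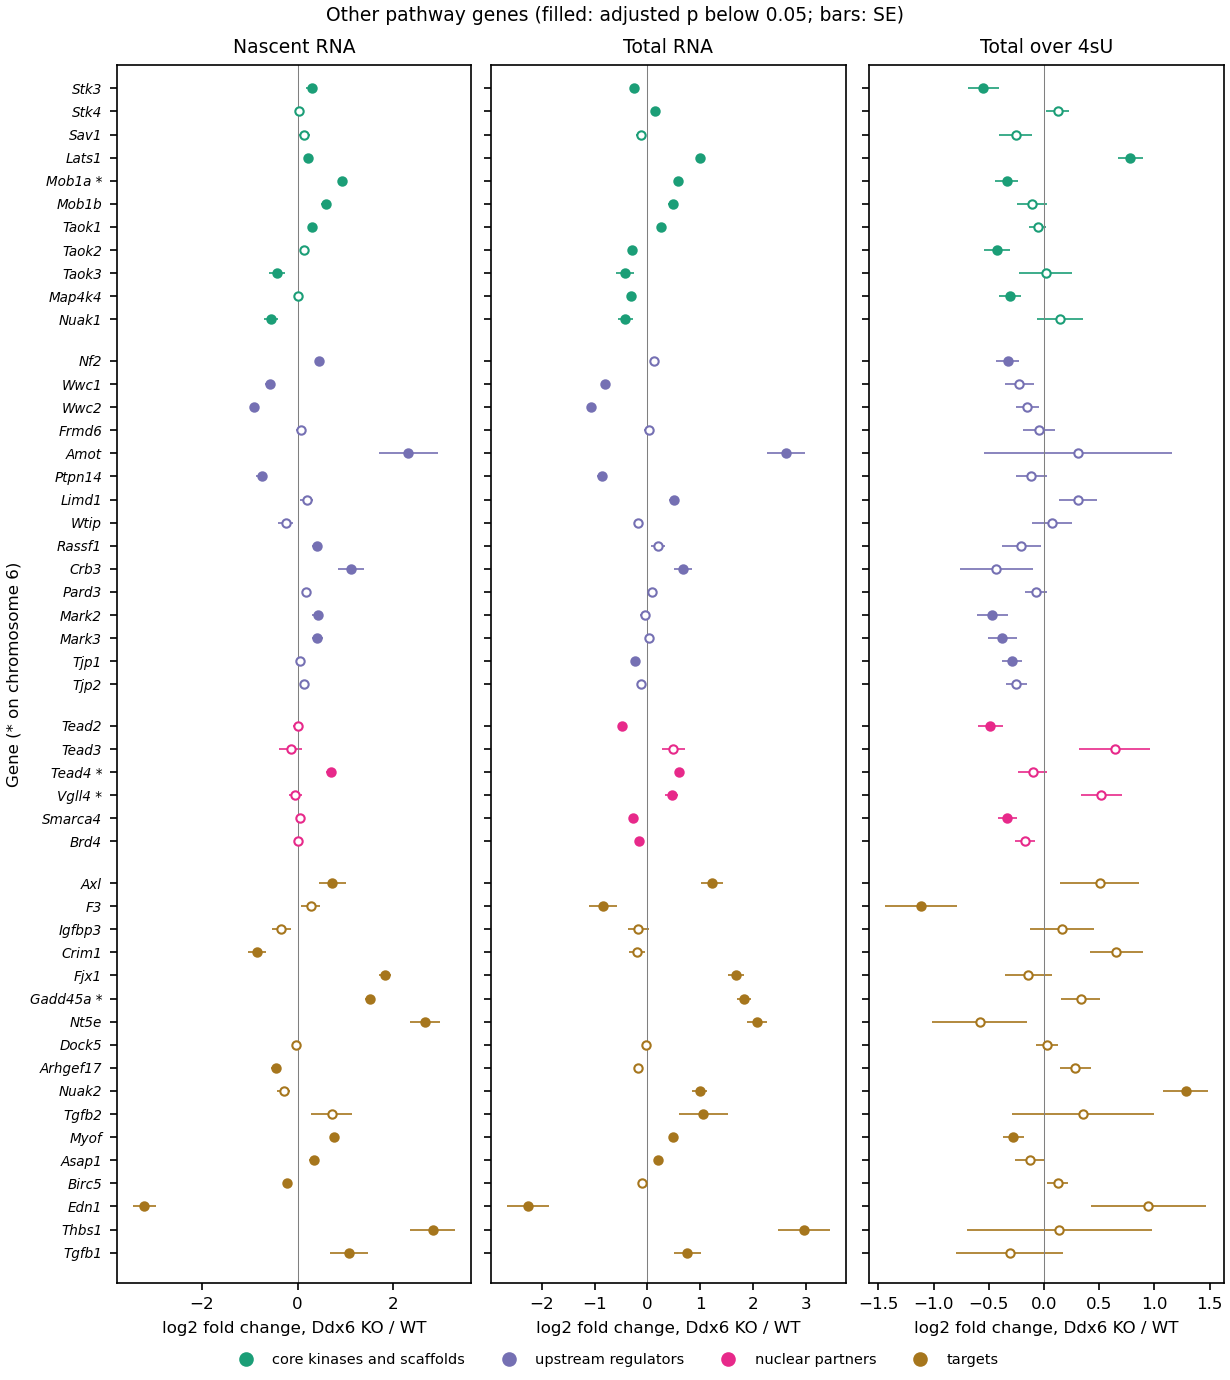
Log2 fold change in *Ddx6* KO against wild type of 49 of the 50 tested pathway genes, by role, in nascent RNA, total RNA and total over 4sU, with SE bars, filled points at adjusted p below 0.05 and an asterisk for genes on chromosome 6. Changes of both signs appear in the first 2 panels, while in the third 2 of the filled points drawn (*Lats1* and *Nuak2*) lie above 0 and 12 lie below.

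Among 11 core kinases and scaffolds, 5 rose and 2 fell in nascent RNA, 5 rose and 5 fell in total RNA, and 1 rose and 4 fell in the ratio. *Lats1*, the paralog of *Lats2*, rose in total RNA from 35.2 to 70.6 normalised CPM (log2 1.00 ± 0.08, adjusted p = 7.7e-16). Its nascent RNA rose by far less (0.22 ± 0.08, adjusted p = 0.0235, not called under 7 of 17 alternatives), and its ratio rose by 0.78 ± 0.12 (adjusted p = 1.8e-06). *Mob1a*, a LATS coactivator, rose in nascent RNA (0.93 ± 0.08, adjusted p = 9.1e-13). It lies on chromosome 6, where the median of 735 genes was 0.54 in nascent and 0.44 in total RNA against −0.02 and −0.12 elsewhere. The part of that shift in the gene's value was not tested. *Stk3*, an MST kinase, rose in nascent RNA (0.29 ± 0.12) and fell in total RNA (−0.26 ± 0.08) and in the ratio (−0.55 ± 0.14, adjusted p = 0.00519). Its call was lost under 9 of 17 alternatives in nascent RNA, 3 in total RNA and 1 in the ratio. This gene was chosen after its values were seen.

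Of 15 upstream regulators, 6 rose and 3 fell in nascent RNA, 3 rose and 4 fell in total RNA, and none rose while 4 fell in the ratio. *Wwc2*, a KIBRA-family scaffold that promotes LATS activation, fell from 199 to 106 normalised CPM in nascent RNA (log2 −0.91 ± 0.08, adjusted p = 1.1e-14). Its total RNA fell alike, from 222 to 106 (−1.06 ± 0.07, adjusted p = 6.5e-20), and its ratio was −0.15 ± 0.10. The nascent loss of this gene thus stood at about its full size in total RNA. *Amot*, the third angiomotin, had only 1 to 2 nascent counts in wild-type libraries and 7 to 14 in KO libraries, a pooled ratio of 4.97 (95% counting interval 1.98 to 16.1), and 2 to 11 against 34 to 46 total counts, a ratio of 6.16 (3.73 to 10.8). *Crb3*, a polarity protein, rose in nascent RNA (1.11 ± 0.27, adjusted p = 0.000603). *Mark2*, a polarity kinase, fell in the ratio (−0.47 ± 0.14, adjusted p = 0.0230), a call absent under 10 of 18 alternatives.

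The 6 nuclear partners included 1 that rose in nascent RNA, 2 that rose and 3 that fell in total RNA, and 2 that fell in the ratio. *Tead2*, a paralog of *Tead1*, had a nascent difference of 0.00 ± 0.10 (log2). Its total RNA fell from 213 to 152 normalised CPM (−0.49 ± 0.06, adjusted p = 4.6e-10), and its ratio fell by 0.49 ± 0.11 on the log2 scale (adjusted p = 0.00178), the same arrangement as in *Tead1*. *Tead4*, the TEAD of the trophectoderm, rose in both assays (0.71 ± 0.11 and 0.60 ± 0.08, adjusted p = 1.6e-07 and 3.9e-09), and it lies on chromosome 6. The 5 trophectoderm markers summed to 31.0 to 47.3 normalised CPM in wild-type and 20.6 to 23.8 in KO 4sU libraries, and to 16.8 to 22.6 and 15.1 to 20.3 in total RNA. Those of primitive endoderm gave 13 to 18.6 and 16.8 to 20.3, and 8.72 to 14.5 and 12.3 to 18.4. These sums also hold opposite differences. Mean nascent *Gata3* was 14.4 in wild-type and 3.57 in KO cells, whereas mean total *Krt7* was 1.7 and 3.7. Mean nascent *Sox17* was 3.45 and 1.62, whereas *Dab2* was 3.46 and 6.71. The part of these markers in the members' values was not tested.

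Of 18 further YAP targets, 8 rose and 4 fell in nascent RNA, 11 rose and 2 fell in total RNA, and 2 rose and 2 fell in the ratio. That is 44.4% and 22.2%, 61.1% and 11.1%, and 11.1% and 11.1%. The shares of all genes were 20.6% and 21.0%, 19.5% and 31.0%, and 3.79% and 8.58%. The listed targets thus moved in both directions and did not all share that of *Cyr61*, *Ctgf* and *Amotl2*. *Edn1*, encoding the vasoconstrictor endothelin 1, came closest to them: 30.8 to 3.41 normalised CPM in nascent RNA (log2 −3.20 ± 0.24, adjusted p = 5.9e-17), 2.94 to 0.592 in total RNA (−2.26 ± 0.40, adjusted p = 2.9e-06) and a ratio of 0.94 ± 0.52 that was not called (adjusted p = 0.255). Its counts were 65 to 94 against 9 to 16 in 4sU libraries and 15 to 20 against 2 to 8 in total RNA. *Fjx1*, a Golgi kinase, rose in nascent RNA from 19.9 to 70.9 (1.83 ± 0.13, adjusted p = 8.5e-18) and in total RNA by 1.68 ± 0.15. *Nt5e*, the ectonucleotidase CD73, rose by 2.66 ± 0.32 and 2.07 ± 0.19. *Gadd45a*, a stress-response gene on chromosome 6, rose by 1.51 ± 0.11 and 1.84 ± 0.13. *Thbs1*, encoding a matricellular protein, had 3 nascent counts in each wild-type library against 17 to 39, a pooled ratio of 7.03 (95% counting interval 3.57 to 15.8).

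Of the remaining named targets, *Nuak2*, a kinase, rose in total RNA from 9.10 to 18.1 normalised CPM (log2 0.99 ± 0.15) and in the ratio by 1.28 ± 0.20 (adjusted p = 5.2e-06), with a nascent difference of −0.29 ± 0.14 that was not called. *F3*, tissue factor, fell in the ratio (−1.11 ± 0.33, adjusted p = 0.0164) and in total RNA (−0.84 ± 0.26). *Axl*, a receptor kinase, rose in total RNA (1.23 ± 0.20, adjusted p = 8.6e-07). *Tgfb2* rose in total RNA at the edge of the threshold (1.06 ± 0.46, adjusted p = 0.0458, not called under 11 of 16 alternatives), and *Tgfb1* rose in nascent RNA (1.07 ± 0.40, adjusted p = 0.0247, not called under 5 alternatives).

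Opposite calls in nascent RNA and the ratio were found for 6 listed genes, and calls of the same sign for 1 (*Lats1*). All 6 (*Stk3*, *Mob1a*, *Nf2*, *Mark2*, *Mark3* and *Myof*, named after their values were seen) rose in nascent RNA and fell in the ratio. The count of 6 depended on the setting: it was 0 with DESeq2, 3 with limma-voom, 2 with TMM within each assay and 12 with library size only. With 1 culture left out it was 1 (without WT 2 or clone 2 culture 1), 2 (WT 1 or WT 3), 3 (clone 1 culture 1) or 4 (clone 1 culture 2 or clone 2 culture 2). A called nascent loss with a called gain in the ratio, the arrangement of *Amotl2*, was found in none of the 50, though 4 of 17 alternatives gave 1 such gene. Called gains in the ratio of any kind covered only 3.79% of all tested genes. The share of all genes with either pair of calls was not computed, so nothing is read from these counts. *Crim1*, encoding a transmembrane BMP antagonist, had −0.85 ± 0.18 in nascent RNA (log2, adjusted p = 0.000117) and 0.65 ± 0.24 in the ratio (adjusted p = 0.0645, called with the culture as a block).

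The profile of *Amotl2* over the 14 libraries (log2 normalised CPM plus 0.5, centred within each assay) was most like that of *Myl6*, a myosin light chain (Pearson's r = 0.991), *Hist1h2ag*, a histone gene whose reads near-identical copies could share (0.978), *Ackr3*, a chemokine receptor (0.977), *Cyr61* (0.976) and *Cdc42ep3*, a CDC42 effector (0.976). These values share the genotype contrast and are a description. Among the other members r was 0.947 for *Ctgf*, 0.903 for *Ajuba* and 0.713 for *Lats2*, near 0 for *Tead1* (0.158) and *Amotl1* (0.089), and negative for *Yap1* (−0.691) and *Wwtr1* (−0.812). Of these nearest genes, *Myl6* had −1.08 in nascent and −0.30 in total RNA, *Ackr3* −1.45 and −0.37, and *Cdc42ep3* −1.22 and −0.51 (log2).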

How the data were processed

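The authors labelled cells with 4sU, built stranded libraries, trimmed reads with Cutadapt 1.14, mapped them uniquely to mm10 with STAR 2.5.3a and assigned them by strand to Gencode M14 genes other than rRNA with featureCounts 1.5.3. The values the authors deposited are raw counts, without normalization. Both runs of a 4sU library (single-end, then paired-end) were summed here, as in the study. Rows for spike-in sequences, all at 0, were dropped.

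The filter asked for at least 3 CPM in 3 libraries. edgeR 4.0.16 (R 4.3.3, quasi-likelihood test, robust, TMM over 14 libraries) fitted 1 model with genotype, assay and their interaction, the last being stability. P-values were adjusted by Benjamini-Hochberg over all 14518 genes, and called means an adjusted p below 0.05. Levels per kb used the deposited gene lengths. Symbols and positions came from Gencode M21, which held 51274 of the 51467 IDs. The model was tested on simulated data and recovered 199, 200 and 200 of 200 planted changes (log2 1.5) in nascent RNA, total RNA and stability. Those changes were planted only in well-counted genes, and the simulated counts held no clone or culture effect. Recovery of smaller changes or in low-count genes was therefore not tested. Alternatives used DESeq2 1.42.0, limma 3.58.1, other scalings, filters, runs and left-out cultures.

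Members, pathway list, markers and tests were chosen with earlier results of these data known. Named from the list were genes called with an absolute log2 fold change above 1 and, per role and contrast, the gene with the smallest adjusted p. 1 listed gene is counted but not reported by name here. Likeness to *Amotl2* named 5 genes. Deviations of 4sU and total RNA of a culture, which come from the same RNA, correlated at 0.0035 to 0.125. Intervals and floors cover counting error only.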

Additional observations from a re-analysis of the deposited data

Results flagged for a closer look

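The gap of 1 culture to its nearest neighbour was tested within each KO group of 4 for the 9 members in nascent RNA, total RNA and the ratio, 27 groups in all. In 2 of these groups the culture at the end lay beyond Dixon's 95% critical value, where chance alone gives about 1.35. Both were the second culture of clone 2. Its *Amotl1* total RNA was 61.9 normalised CPM, above the other KO cultures at 54.3 to 55.2 (ratio of gap to range 0.884). Its *Tead1* nascent RNA was 151.3 normalised CPM, above 133 to 135 in the others (0.885).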

How the results depend on the processing

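For the members, 425 of 468 fold changes under alternatives moved by less than 1 SD between cultures (log2, pooled over both genotypes). Another 43 moved further, and none that was called changed sign. WT total over 4sU of the members stayed within 1 SD in all 36. For the pathway genes named by the rule above, 920 of 985 fold changes kept their call status, 60 lost and 4 gained the call. Only 1 called value reversed: *Axl* in nascent RNA, −0.109 with the re-sequencing run alone. The sign was compared only for values called in the main fit. Uncalled values could change sign, such as the ratio of *Amot*, 0.31 in the main fit and as low as −0.76. Pathway counts moved as follows. Nascent higher gave 33 with library size only and 7 with absolute log2 above 1, and nascent lower 1 with that threshold. Total higher gave 9 with it, and total lower 2, 8 with library size only and 9 without a filter. Ratio higher gave 5 with TMM within each assay and 5 with the culture replicate block. Ratio lower gave 5 with DESeq2, 3 with TMM within each assay, 6 without a filter, 6 with either run alone, 4 with clone 1 alone, 6 with clone 2 alone, 1 with absolute log2 above 1 and 5 to 10 with a culture left out (5 without WT 1, WT 3 or clone 2 culture 1, 6 without WT 2). Members called between clones were 1 (DESeq2), 2 (limma-voom), 2 (no filter), 1 (first run) and 0 to 3 with a culture left out in nascent RNA, and 1, 1, 2 and 1, 1 with the re-sequencing run, and 0 to 1 in total RNA. The share of all genes called between clones under these settings was not computed, so nothing is read from those member counts. The cause of these moves was not tested. Same-numbered WT and KO cultures share only a number (mean r 0.0138 in 4sU, 0.017 in total RNA), and a replicate block on it gave 19 and 9 in nascent RNA, 20 and 13 in total RNA, 3 and 12 in the ratio and no member called between clones. The culture block added *Crim1* and *Vgll4* to the genes with a higher ratio and changed no other call on the pathway list. Depth limits *Ankrd1*, *Amot*, *Thbs1* and *Tgfb2*.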
